A study of Mus musculus with 2 samples.

Results

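The genes described here encode histone deacetylases: Hdac1, Hdac2, Hdac3, Hdac4, Hdac5, Hdac6, Hdac7, Hdac9, Hdac10 and Hdac11. They were chosen by symbol alone and are 10 of the 17817 genes in the expression table, and not every gene of the classical family is among them. The study sequenced RNA from mouse embryonic stem cells (mESCs) to see how gene levels differ without Setd2, the enzyme that trimethylates histone H3 on transcribed genes. It holds 1 wild-type library and 1 library labelled Setd2 KO, both of strain 129SV/C57BL/6, at 10 to 12 passages and untreated. Cells of both genotypes had grown on feeder cells, were plated on gelatin for 0.5 h so that feeder cells attached, passaged once on gelatin and collected after 2 days. The labels do not say how Setd2 was disrupted, or how many lines or clones were used.

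Histone deacetylases remove acetyl groups from lysines, and on histones this generally goes with a closed, less active chromatin. Class I enzymes (here Hdac1, Hdac2 and Hdac3) are mostly nuclear and are the catalytic subunits of corepressor complexes, with Hdac1 and Hdac2 in the NuRD, Sin3, CoREST and MiDAC complexes and Hdac3 in the NCoR complex. Class IIa enzymes (Hdac4, Hdac5, Hdac7, Hdac9) have weak activity of their own, bind MEF2 factors and leave the nucleus when kinases mark them for 14-3-3 proteins. Class IIb holds Hdac6, a cytoplasmic deacetylase of tubulin, and Hdac10, which deacetylates polyamines, and class IV holds Hdac11, which removes long fatty acyl groups. In yeast, the histone mark made by the Setd2 homologue recruits a deacetylase complex of the Hdac1 type to transcribed genes.

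The 2 libraries held 56129838 (wild type) and 52041677 (knockout) read equivalents over genes, a read equivalent being 76 sequenced bases. Levels are given per 1000000 of these (CPM), with no correction for gene length unless stated, and a pair of levels always has the wild type first. Setd2 itself stood at 452 CPM in wild type and at 174 CPM, or 38.5% of that, in the knockout. All 10 embryonic stem cell markers listed (among them Pou5f1, Sox2 and Nanog) were above a mean of 1 CPM, with summed levels of 3869 and 3398 CPM. Of these 1, Zfp42, was at least 2-fold lower in the knockout. It lies on chromosome 8, where the genes compared had a median log2 fold of -0.35. Of the 76-base stretches of Zfp42, 59.6% also occur elsewhere in the genome within 2 mismatches, so its level is uncertain. Of 12 fibroblast markers, standing for feeder cells, 10 were above the floor of 1 CPM. The 12 had summed levels of 122 and 99.4 CPM, with Lum listed at 0 in the knockout library. Of the 10 above the floor, 1 was at least 2-fold lower in the knockout, beside the same 2.11%, and 0 were higher. Muscle markers summed to 22.7 and 17.1 CPM, almost all of it Des, and the defining muscle factor genes Myod1 and Myog were below 1 CPM in both libraries. Neuron markers summed to 48.0 and 29.9 CPM. Of the 3 above the floor, 2 were lower and 1 higher in the knockout, with log2 folds from -0.99 to 0.73. Tubb3, among the neuron markers, is also on chromosome 8, and 33.0% of its 76-base stretches occur elsewhere. Primitive endoderm markers summed to 276 and 137 CPM. Of the 6 above the floor, 4 were at least 2-fold lower in the knockout, against 2.11% of all genes compared. In bulk RNA, fewer cells of a type and less RNA per cell cannot be told apart. The part of these other cells in the deacetylase levels was not tested.

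Only Hdac1, of the 10 genes, had sequence that recurs elsewhere in the genome, and the sequences are shown because the reading of its level turns on them. Every window of 76 bases in 1 annotated transcript per gene was searched against the mouse assembly NCBIM37 (the same as mm9), allowing 2 mismatches. For Hdac1, 1712 of 1963 windows (87.2%) had another place, and for the other 9 genes 0 of 29400 did. The Hdac1 gene (gene number 433759, chr4:129193348-129219890, minus strand) has 14 exons, and its coding sequence of 1446 bases recurs without introns at 3 places that have rows of their own in the table. The first is Gm10093 (chr17:78890905-78892881), with 99.4% identity over the coding sequence and 9 differing bases. Gm10093 is annotated as protein coding in GENCODE vM1, while the RefSeq gene table (GRCm38.p6) lists its gene number, 15181, as the pseudogene Hdac1-ps. The others are Gm4864 (chr12:78724376-78725996, 96.1% identity) and Gm5824 (96.3% identity). The next sequences compare a stretch across the boundary of 2 Hdac1 exons (bases 138 to 213 of the coding sequence) with both printed copies and with the paralog Hdac2. It was picked as a boundary stretch with no difference from Gm10093 and the fewest from Gm4864, so it shows both copies at their closest. The exon boundary lies after base 25, and capitals mark bases that differ from Hdac1.
Hdac1 (chr4:129206238-129211882, minus strand, across an intron): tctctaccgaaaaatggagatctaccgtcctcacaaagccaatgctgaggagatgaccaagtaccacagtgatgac
Gm10093 (chr17:78891059-78891134, plus strand): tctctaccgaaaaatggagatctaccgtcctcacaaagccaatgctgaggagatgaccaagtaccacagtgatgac
Gm4864 (chr12:78725784-78725859, minus strand): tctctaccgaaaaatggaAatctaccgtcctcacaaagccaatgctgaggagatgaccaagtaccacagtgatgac
Hdac2 (chr10:36705021-36706163, plus strand, across an intron): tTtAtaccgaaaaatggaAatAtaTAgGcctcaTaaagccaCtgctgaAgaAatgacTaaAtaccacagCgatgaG

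Here Gm10093 is identical to spliced Hdac1 in 1 unbroken stretch, Gm4864 differs at 1 base (G19A, counted from 1 at the first base printed) and Hdac2 at 15. A read of this stretch has an ungapped match at Gm10093, whereas at Hdac1 itself it matches only when split over the intron. Over the whole transcript, 95.4% of the 949 windows that cross an exon boundary had another ungapped place. The following stretch (bases 407 to 482 of the coding sequence) is the one in which Gm10093 differs most from Hdac1, with capitals as before.
Hdac1 (chr4:129200219-129200294, minus strand): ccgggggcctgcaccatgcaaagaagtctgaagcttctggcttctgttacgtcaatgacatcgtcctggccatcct
Gm10093 (chr17:78891328-78891403, plus strand): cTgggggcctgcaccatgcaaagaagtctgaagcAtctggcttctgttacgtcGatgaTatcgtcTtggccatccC
Gm4864 (chr12:78725515-78725590, minus strand): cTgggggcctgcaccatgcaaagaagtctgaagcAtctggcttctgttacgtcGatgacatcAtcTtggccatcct
Hdac2 (chr10:36709007-36709082, plus strand): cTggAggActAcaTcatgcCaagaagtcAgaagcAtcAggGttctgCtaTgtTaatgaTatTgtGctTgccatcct

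In this stretch Gm10093 differs from Hdac1 at 6 bases, so 6 of its 9 coding differences lie within 76 bases. Gm4864 differs at 5 and Hdac2 at 17. The changes C2T and T35A are shared by Gm10093, Gm4864 and Hdac2, and A54G and C66T by both intronless copies. Of the 1371 windows wholly within the Hdac1 coding sequence, 1307 (95.3%) had another place within 2 mismatches, and 251 windows of the whole transcript had none. The copies differed in this. Within 2 mismatches, 83.3% of the transcript's windows recur at Gm10093, 34.4% at Gm5824 and 32.1% at Gm4864. Without a mismatch the shares are 63.3%, 5.04% and 2.34%. The sources used here do not say how reads with several places were counted.

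Hdac1, a catalytic subunit of several corepressor complexes, had 55.7 CPM in wild type (3125 read equivalents) and 19.6 CPM in the knockout (1021). The knockout was thus the lower, at 35.2% of wild type, with a 95% counting interval of 32.8 to 37.8%. All intervals here reflect counting error alone, and since the reads carry no molecular identifiers they may repeat molecules. The rows of its copies had other ratios. Gm10093 had 512 and 419 CPM, a ratio of 81.7% (interval 80.3 to 83.1%). Gm4864 went the other way, with 5.66 and 33.3 CPM, 5.89-fold higher (interval 5.22 to 6.65). Gm5824 (chromosome 18, 86016510 to 86018154) was at 1.27 and 2.71 CPM, 2.14-fold higher, from 71 and 141 read equivalents.

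Summed over Hdac1 and its 3 copies, the level was 575 CPM in wild type and 474 CPM in the knockout, a ratio of 82.5% (interval 81.1 to 83.9%). The knockout was still the lower, but the log2 fold was -0.28 instead of the -1.48 of the Hdac1 row. With Gm10093 alone added it was -0.37, a ratio of 77.1%. The Hdac1 row took 9.68% of the 4 rows' reads in wild type (exact binomial interval 9.36 to 10.0%) and 4.14% in the knockout (3.89 to 4.39%). Gm10093 took 89.1 and 88.3%, and Gm4864 0.984 and 7.03%. Which of the 4 places the reads came from cannot be told from gene totals. The Hdac1 level is therefore uncertain, and adding the copies takes the gene from past a 2-fold difference to within it. The sums were chosen after the values were seen, and the copies were named for their sequence, as all rows that share at least 100 windows with Hdac1.

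**Figure D1:**
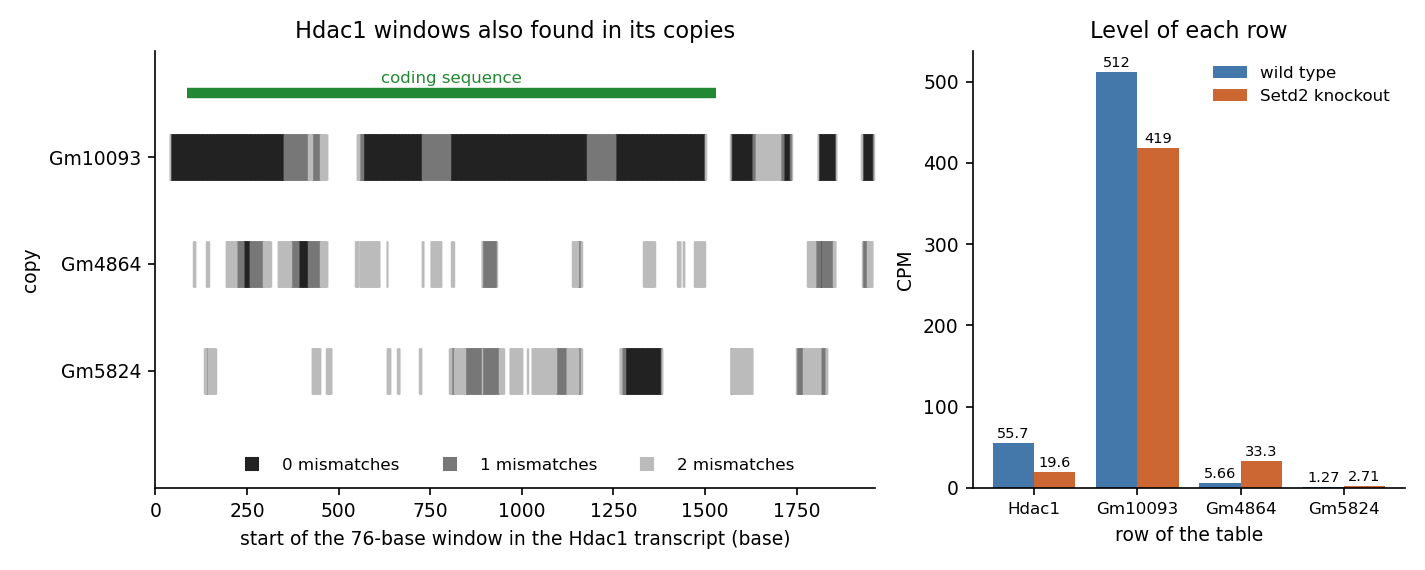
Left, starts of the windows of 76 bases in the Hdac1 transcript that recur in each intronless copy with 0, 1 or 2 mismatches (dark to light). Right, bars of the CPM level of the 4 rows in each library, where Gm10093 holds 512 and 419 CPM and Hdac1 55.7 and 19.6 CPM.

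Hdac2, the closest paralog of Hdac1 and its usual partner in the same complexes, had 162 CPM in wild type and 220 CPM in the knockout. It was higher in the knockout, 1.36-fold (interval 1.32 to 1.39), opposite in direction to Hdac1. Its coding sequence has 76.3% identity to that of Hdac1 over the aligned 1404 bases, and 0 of its 1930 windows had another place. Hdac2 lies on chromosome 10 (36694350 to 36721694, plus strand). Hdac3, the enzyme of the NCoR complex (chromosome 18, 38096625 to 38114642, minus strand), had 86.1 and 93.7 CPM, 1.09-fold higher (interval 1.05 to 1.13). The 3 class I genes together had 304 and 333 CPM, 1.10-fold higher. With the copies of Hdac1 added the sum was 823 and 788 CPM, a ratio of 95.7%, so the direction of the class total depends on how the Hdac1 copies are read.

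Of the class IIa genes, 3 of 4 were lower in the knockout library and Hdac9 was higher. Hdac4, known for its role in cartilage and muscle (chromosome 1, 93829332 to 94044970, minus strand), had 48.7 CPM in wild type and 35.6 CPM in the knockout, 73.1% (interval 68.9 to 77.6%). Hdac7, known from endothelium and developing T cells (chromosome 15, 97623112 to 97662102, minus strand), had 12.1 and 7.81 CPM, 64.7% (57.1 to 73.3%). Apart from Hdac1 it was the lowest of the 10 in ratio. Hdac5, a regulator of muscle and heart growth (chromosome 11, 102057061 to 102091486, minus strand), was closer, with 43.3 and 37.8 CPM, 87.3% (82.1 to 92.6%).

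Hdac9 (chromosome 12, 35056368 to 35213754, minus strand) had the lowest level of the 10, with 190 and 263 read equivalents. That is 3.39 and 5.06 CPM, 1.49-fold higher (interval 1.23 to 1.81). The table's row for Hdac9 does not span the whole gene. GENCODE vM1 places the gene from 34732451 to 35213754, and 54.8% of its annotated coding bases fall inside the row. The row holds all coding bases of 2 of its 3 coding transcripts and 14.1% of those of the third, which covers the downstream end of this minus-strand gene. Hdac9 is known to make a short form, MITR, that lacks the catalytic domain, and RefSeq lists Mitr among its synonyms. The level of the downstream exons was not analysed here. For Hdac4 the row held 91.8% of annotated coding bases, and for the remaining 8 genes all of them.

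Together Hdac4, Hdac5 and Hdac7 had 104 and 81.2 CPM, a ratio of 78.0%. With Hdac9 the class summed to 107 and 86.3 CPM, 80.3% (interval 77.2 to 83.4%). The summed fibroblast and muscle markers, of cell types in which class IIa genes are well known, were lower, at the values given above. So were the sums of stem cell, neuron and primitive endoderm markers. Of the 10 fibroblast markers above the floor, 7 had a log2 fold below 0 and 3 above. Pecam1 and Tek among the endothelial markers had 54.7 and 61.2 CPM and 36.9 and 30.1 CPM. The endothelial genes Cdh5 and Tie1 were below 1 CPM in both libraries. Whether such cells bear on the class IIa levels was not tested.

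Hdac6, the tubulin deacetylase (chromosome X, 7507248 to 7525015, minus strand), had the most reads of the 10 rows, Hdac1 without its copies, with 192 CPM in wild type and 222 CPM in the knockout. It was 1.16-fold higher there (interval 1.13 to 1.19), a log2 fold of 0.21, beside a median of 0.17 over the 506 X-linked genes compared. Hdac10, the polyamine deacetylase (chromosome 15, 88953734 to 88959130, minus strand), was slightly lower, with 63.8 and 56.5 CPM, 88.4% (84.2 to 92.9%). Hdac11, the only class IV gene (chromosome 6, 91106809 to 91124677, plus strand), had 8.26 and 11.6 CPM. The knockout library was 1.41-fold higher (interval 1.25 to 1.59), from 464 and 606 read equivalents.

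**Figure D2:**
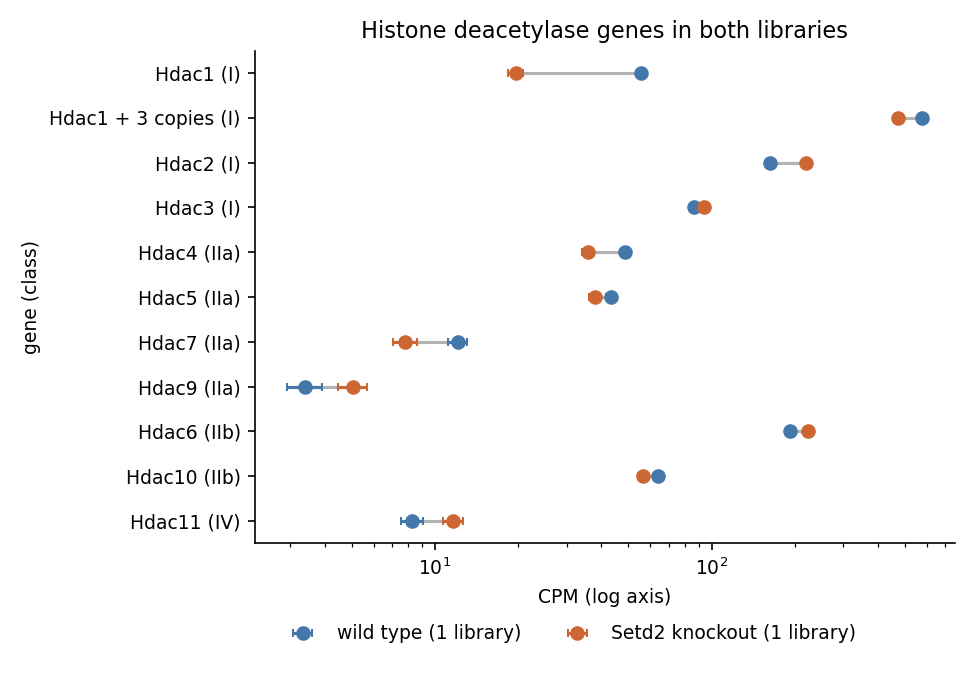
CPM (log axis) of each deacetylase gene in the wild-type and the knockout library, with 95% counting intervals and with Hdac1 also summed with its 3 copies. Levels run from 3.39 CPM for Hdac9 to 192 CPM for Hdac6 in the wild-type library, and the widest gap between the libraries is that of the Hdac1 row.

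Outside Hdac1, every deacetylase gene was within 2-fold between the libraries. The comparison took in every gene whose mean of both levels reached 1 CPM, and all 10 deacetylases did. Log2 folds used a pseudocount of 0.5 CPM, which makes folds of low genes smaller. At least 2-fold lower in the knockout library was 1 of the 10, Hdac1, against 2.11% of the 13523 genes compared. At least 2-fold higher were 0 of the 10, against 1.76% of all genes, and 3.87% were 2-fold apart in either direction. At 1.5-fold 2 were lower, Hdac1 and Hdac7, against 6.77% of all genes, and 0 were higher, against 7.42%. With the 3 copies added to Hdac1, 0 of the 10 were 2-fold apart and Hdac1 (-0.28) was also within 1.5-fold. Hdac7 was within 1.5-fold with a pseudocount of 1 CPM (-0.57).

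Signs were evenly split, with 5 of 10 below 0 against 43.6% of all genes compared. The median log2 fold of the 10 was -0.03, beside 0.05 over all genes. Outside Hdac1 the folds ran from -0.60 (Hdac7) to 0.52 (Hdac9). Between the quartiles of all genes, -0.20 and 0.28, lay 4 of the 10: Hdac3, Hdac5, Hdac6 and Hdac10. All 10 had a counting interval that excluded a ratio of 1, but so did 73.2% of all genes compared, so at this depth that is no mark of the deacetylases. Neither genotype had a replicate, and none of these differences could be set against the spread between cultures.

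**Figure D3:**
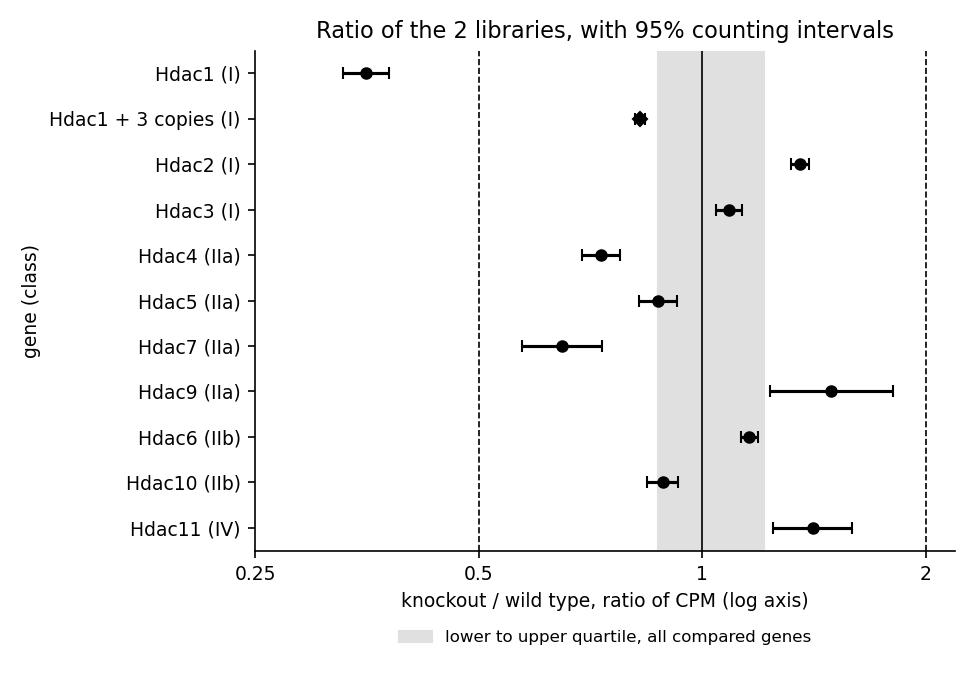
Ratio of the knockout to the wild-type level (log axis) of each deacetylase gene with its 95% counting interval, the quartile range of all genes compared (grey) and the 2-fold limits (dashed). Hdac1 alone lies beyond 2-fold, at 0.352, and is at 0.825 when its 3 copies are added (diamond).

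Levels of different genes can be compared only per length, here as CPM per kilobase of annotated exon inside each row. In wild type the order was Hdac2 (36.2 CPM per kb), Hdac6 (33.1), Hdac3 (29.7), Hdac10 (18.9), Hdac1 (16.5), Hdac4 (11.9), Hdac5 (5.80), Hdac7 (2.41), Hdac11 (2.24) and Hdac9 (0.763). In the knockout library Hdac2 led with 49.1 CPM per kb, followed by Hdac6 (38.2) and Hdac3 (32.3). There Hdac1 (5.81) stood below Hdac4 (8.71), and Hdac11 (3.16) stood above Hdac7 (1.56). These orders depended on the length used. With the exons of protein-coding transcripts alone, Hdac6, Hdac3 and Hdac2 stood at 43.0, 42.9 and 38.2 CPM per kb in the wild-type library. With those exons Hdac1 (9.95) stood above Hdac4 (8.71) in the knockout as well, and Hdac11 (3.18) above Hdac7 (2.68) already in wild type. With its 3 copies added, Hdac1 led in both libraries with 170 and 140 CPM per kb of all annotated exons. With the exons of protein-coding transcripts it had 292 and 241 CPM per kb. The reads of the copies were divided by the Hdac1 length in both.

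By class, Hdac1, Hdac2 and Hdac3 made up 52.3% of the summed per-length level of the 10 genes in wild type and 53.9% in the knockout. With the exons of protein-coding transcripts alone the shares were 53.1 and 52.9%, so the direction of this small difference was not firm. The share of class IIb was 33.0 and 34.0%, that of class IIa 13.3 and 10.2%, and that of Hdac11 1.42 and 1.95%. Class IIa thus took a smaller share in the knockout library, and with the Hdac1 copies added the same order held, at 6.71 and 5.56%. Class I then took 75.9 and 74.8%.

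**Figure D4:**
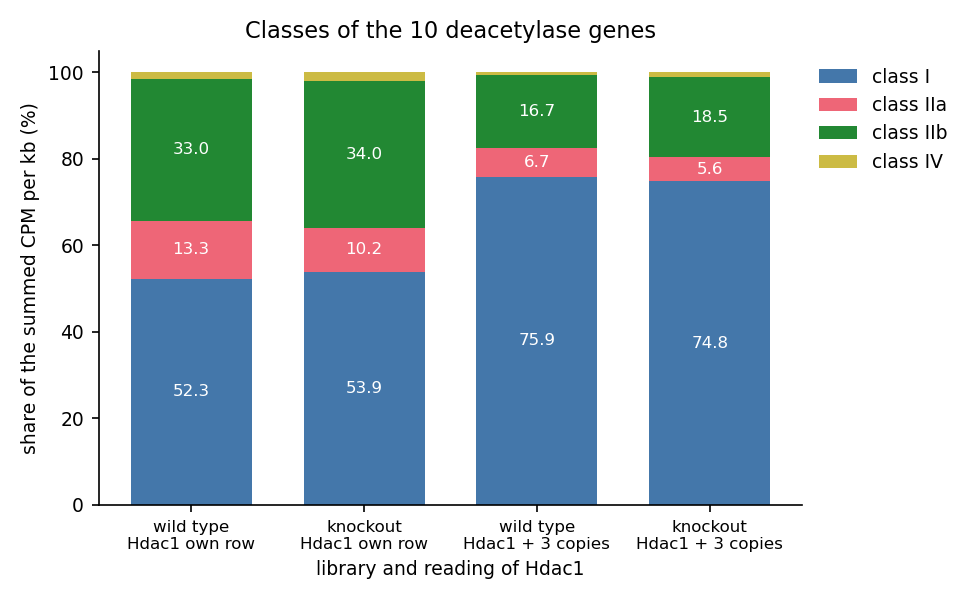
Stacked bars of the share of each class in the summed CPM per kb of the 10 genes, in each library, with Hdac1 read from its own row (left pair) or with its 3 copies (right pair). Class I holds 52.3 and 53.9% in the first reading and 75.9 and 74.8% in the second.

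The subunits of the complexes in which Hdac1, Hdac2 and Hdac3 act were within 2-fold in the 2 libraries, apart from 1 CoREST gene. That is near the background, as 3.87% of all genes compared were 2-fold apart. In the NuRD complex, which joins the deacetylases to a chromatin remodeler, 0 of 12 genes were 2-fold apart, 6 were below and 6 above 0, and the median was 0.02. Its remodeler gene Chd3 had 33.2 and 52.8 CPM (log2 fold 0.66) and the methyl-CpG binding gene Mbd2 15.4 and 21.3 CPM (0.46). Gatad2a, on chromosome 8, had 435 and 287 CPM (-0.60) and Mbd3, needed for NuRD assembly in stem cells, 53.0 and 42.3 CPM (-0.32). Chd3 and Mbd2 were therefore the high end and Gatad2a and Mbd3 the low end of a list centred near 0.

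The Sin3 complex had 0 of 16 genes 2-fold apart and a median of 0.21, with 9 above and 7 below 0. Its 4 genes on chromosome 8 were all below 0, and the 719 genes compared on that chromosome, which also carries Gatad2a, had a median of -0.35. Sin3b, one of its scaffold genes and among those 4, had 82.5 and 63.3 CPM (-0.38). Brms1l had 29.7 and 38.3 CPM (0.36), Suds3 65.0 and 83.5 CPM (0.36) and Fam60a 288 and 366 CPM (0.35), but 86.7% of the windows of Fam60a had another place. Without the 3 genes that have over 20% of such windows the median was -0.034, and without the genes on chromosome 8 it was 0.29. The sign of this median thus depends on which genes of a 2-sided list are kept.

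In the CoREST complex, which pairs the deacetylases with the demethylase Kdm1a, 1 of 10 genes was 2-fold lower and 0 higher. That stands beside 2.11% and 1.76% of all genes compared, and the median was 0.01. The lower gene was Gse1, a CoREST-associated protein gene on chromosome 8, with 288 and 123 CPM, 42.7% (interval 41.5 to 44.0%). Rcor1, a scaffold gene, had 70.7 and 58.0 CPM (-0.28), and Hmg20b had a log2 fold of -0.12. The related Rcor2, named after its values were seen, had 71.0 and 74.1 CPM (0.06). Of the 10 CoREST genes 5 were below and 5 above 0. Of the NCoR complex of Hdac3, 0 of 5 genes were 2-fold apart and the median was -0.14. Its scaffold gene Ncor1, at 484 and 461 CPM, was named after its values were seen. Gps2 had 8.18 and 9.95 CPM (0.27), Tbl1x -0.17 and Tbl1xr1 -0.14 on the log2 scale. For MiDAC and the related MIER proteins the median was -0.05, with 0 of 6 apart and folds from -0.53 (C130039O16Rik, the MiDAC scaffold, since renamed Mideas) to 0.24 (Mier2), with Mier3 at -0.20 and Trerf1 at -0.18.

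Among partners of class IIa, 2 of 22 genes were 2-fold or more above wild type and 0 below, against 1.76% and 2.11% of all genes, with a median of 0.09. Both were near the detection floor in the wild-type library and passed 1 CPM only through the knockout library. The calcium-activated kinase gene Camk4 had 0.374 and 2.54 CPM, 6.79-fold (interval 4.26 to 11.3). The transcription factor gene Mef2c, a main target of class IIa repression, had 0.890 and 2.39 CPM, 2.69-fold (1.91 to 3.79). The other MEF2 genes of the list, named after their values were seen, were close to the wild type. Mef2d had 78.6 and 72.6 CPM (-0.11), and the log2 fold was 0.05 for Mef2a and -0.07 for Mef2b. Of the kinases that send class IIa proteins out of the nucleus, Camk2d had 8.66 and 16.2 CPM (0.86) and Prkd1 5.55 and 8.91 CPM (0.64). Others of these kinases went the other way or were close, with Sik1 at -0.46, Sik3 at -0.35, Sik2 at -0.13, Prkd2 at -0.09 and Prkd3 at 0.17, named after their values were seen.

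For Hdac6, the list of partners and tubulin acetylation genes had 0 of 12 apart, against 3.87% of all genes compared, and a median of 0.05. The gene of the opposing tubulin acetyltransferase, Atat1 (2610110G12Rik in the table), had 9.21 and 13.2 CPM, 1.43-fold (interval 1.27 to 1.61). The dynein chain gene Dync1i2 had a log2 fold of 0.40, the chaperone cofactor gene Bag3 -0.33 and Hsp90aa1, whose product is a substrate of Hdac6, 0.18, with 84.3% of its windows shared with other places. In polyamine metabolism, the field of Hdac10, 0 of 9 measured genes were apart and the median was 0.08. The antizyme gene Oaz1 had 23.8 and 42.3 CPM (0.82) and the acetyltransferase gene Sat1, which makes acetylated polyamines, 20.7 and 35.2 CPM (0.75). Srm had a log2 fold of -0.48 and Amd1 0.28. For Oaz1 90.0%, for Sat1 55.7% and for Amd1 98.3% of windows had another place, so these levels are uncertain.

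The other enzymes of acetylation were all within 2-fold. Of all genes compared 3.87% were 2-fold apart in either direction, so counts of 0 in lists this short set nothing apart. Of the sirtuins, the deacetylases that need NAD, 0 of 7 were apart and the median was -0.06, with Sirt1 at 178 and 152 CPM (-0.23), Sirt6 at -0.25, Sirt3 at -0.21 and Sirt2 at 0.18. Histone acetyltransferases, which oppose the deacetylases, had 0 of 14 apart, but 11 were below 0 and 3 above, with a median of -0.17 against 0.05 over all genes. Kat2b had 79.1 and 49.0 CPM (-0.69), with 39.8% of its windows shared with other places, and Crebbp, the CBP coactivator gene, 91.1 and 61.6 CPM (-0.56). Myst3, now Kat6a, on chromosome 8, had 255 and 167 CPM (-0.61) and Ncoa3 900 and 707 CPM (-0.35). The acetyl-lysine readers had 0 of 15 apart and a median of -0.06, from Brpf3 (-0.48) and Cecr2 (-0.39) to Brdt (0.68) and Mllt3 (0.72).

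Genes known to rise when deacetylases are inhibited had a median of 0.29, with 5 above and 2 below 0. Of these 7 genes 0 were 2-fold apart, against 3.87% of all genes compared. The highest was Txnip, a thioredoxin-binding protein gene, with 541 and 1030 CPM, 1.90-fold (interval 1.88 to 1.93). Gadd45b was at 0.31, Clu at 0.30 and Tgfbr2 at -0.29. Besides Txnip the list stayed within 1.5-fold.

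**Figure D5:**
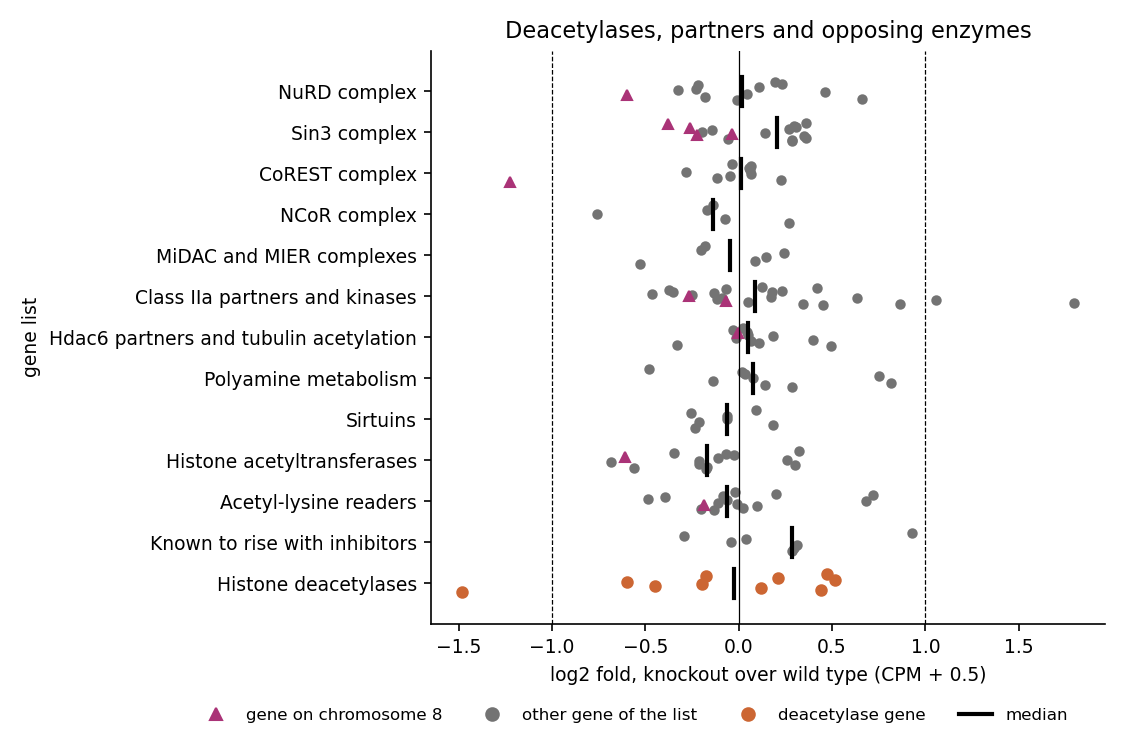
Log2 fold (knockout over wild type) of every gene above the floor in each list of partners and opposing enzymes and of the 10 deacetylases (bottom row). Black bars are medians and triangles are genes on chromosome 8. Medians run from -0.17 (acetyltransferases) to 0.29 (inhibitor-responsive genes), and 1 gene of the CoREST list and 2 of the class IIa partners lie beyond 2-fold (dashed).

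The rows next to each deacetylase gene on its chromosome differed in both directions. Marcksl1, which ends 122 bases from Hdac1 on the opposite strand, had 128 and 146 CPM (log2 fold 0.19), while Lck on the other side, 5697 bases away, had 10.4 and 5.15 CPM (-0.95). Next to Hdac2, at 131354 bases, Marcks had 44.7 and 77.4 CPM, 1.73-fold higher, and Hs3st5 was below 1 CPM. Both Hdac7 and Rapgef3, 25014 bases away, were lower, the latter with 18.8 and 10.3 CPM, 54.5% (interval 49.0 to 60.5%). Slc48a1, whose row overlaps that of Hdac7 by 10 bases on the opposite strand, had a log2 fold of 0.02. The sources used here do not say whether counting used strand. Fbln2, 38080 bases from Hdac11, had 82.5 and 47.1 CPM (-0.80), opposite in direction to Hdac11, and Nup210 on its other side was at -0.34. Of the remaining neighbours, Diap1 (-0.12) and Rell2 (0.21) flank Hdac3, Twist2 (-0.67, below 1 CPM in both libraries) and Ndufa10 (0.38) Hdac4, and G6pc3 (-0.41) and BC030867 (-0.11) Hdac5. Eras (0.10) and Gata1 (0.31) flank Hdac6, Twist1 (0.25) and Snx13 (0.17) Hdac9, 1300018J18Rik (0.00) and Mapk12 (0.19) Hdac10, and Vdr (0.32) stands on the far side of Hdac7.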

How the data were processed

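RNA of 1 wild-type and 1 Setd2 knockout mESC culture was sequenced from standard Illumina libraries of total RNA extracted with a silica column kit, per the labels' protocols. The submitters' processing notes name TopHat 1.0.13, CASAVA 1.6.0 and the mm9 build without saying what each was for. The authors deposited log2 values under headers that say RPKM. Read as log2(x + 1), 85.9% and 85.7% of values of x under 200 equalled a whole number of bases divided by 76, to a tolerance of 0.05 base, with no scaling by depth or length. The sources used here do not give how reads were counted, or how those with several places were treated.

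The log2 values were turned back, scaled to 1000000 per library (CPM), and the row with the highest mean was kept for the 10 repeated rows. Ratios carry exact conditional binomial 95% intervals, levels exact Poisson ones. With 1 library per group no test was possible. Calculations were tested on simulated data and used Python 3.11.15, numpy 2.4.6, scipy 1.17.1, numba 0.67.0 and biopython 1.88. Exon lengths came from GENCODE vM1.

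The members and lists were chosen with earlier results of these data known. Named by rule were the 10 genes, Setd2, their neighbours and the 4 genes of a list that were farthest apart (fewer where a list is shorter); markers were named to check cell types. A few genes that this rule names are not reported here. Results were recomputed with 1.5-fold and 3-fold thresholds, pseudocounts of 0.1 and 1 CPM, no floor or one at 5 CPM, 3 rescalings, summed rows of a symbol and other lengths.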

Additional observations from a re-analysis of the deposited data

How the results depend on the processing

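No paired analysis was possible because wild type and knockout have 1 library apiece; leaving one out would leave nothing to compare. Adding the copies of Hdac1, other exon sets and leaving out genes with shared windows or on chromosome 8 were chosen after seeing the data. Of 62 recomputed log2 folds of single deacetylase genes 56 stayed within their counting intervals and 0 changed sign. A pseudocount cannot turn a sign, summing rows of a symbol left these genes as they were, and rescalings shifted folds by 0.034 to 0.054. The smallest fold was 0.12 (Hdac3), so the signs were largely fixed in advance. Hdac1 was at -0.37 with Gm10093 and -0.28 with all 3 copies, which left 0 of the 10 genes at least 2-fold lower. Rescaling to a median fold of 0 or by a trimmed mean moved all folds down by 0.054, and Hdac2 was at 0.38 and Hdac6 at 0.16 in both. With a floor of 5 CPM 108 genes of the table were 2-fold higher. At 1.5-fold 916 genes were lower and 1004 higher, 2 of the 10 deacetylases among the lower, and at 3-fold 93 and 62, with 0 deacetylases, as the thresholds themselves imply. Of 120 recomputed list medians 119 moved by less than 0.1, and that of the Sin3 complex was -0.034 without genes with over 20% of windows shared. Several settings could not move a list, and medians near 0 changed sign within that limit. NuRD was at -0.069 without the genes with shared windows, and CoREST at -0.041 on rescaling to a median fold of 0. Class shares moved with the length used, and class IIa stayed lower and Hdac11 higher in the knockout library under each. A length divides both libraries alike and leaves the ratio of each gene as it was, so these directions were largely set beforehand. For Hdac9, Hdac11 and Hdac7, with the fewest reads, counting error was widest.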
